A study of Mus musculus with 20 samples.

Results

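The MHC class I pathway shows fragments of a cell's own proteins on its surface, and 10 of its genes were followed here in red cell progenitors. They are the class I heavy chains H2-K1, H2-D1, H2-Q4, H2-Q6, H2-Q7 and H2-T23, the shared light chain B2m, the peptide transporter subunit Tap1, its partner Tapbp, and the proteasome subunit Psmb8. The genes were chosen by symbol, with earlier results of these data known. Each symbol matched 1 of the 37748 entries of the expression table. All 10 reached the level set for testing, 1 or more in 5 or more of the 20 libraries. H2-Q6 and H2-Q7 resemble each other so closely that they are also given as a sum.

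The libraries are bulk RNA sequencing of CFU-E, the late committed erythroid progenitors of mouse bone marrow, sorted for high c-Kit and for CD105 among live cells that lack lineage markers, Sca-1, CD41, CD16/32 and CD150. Control mice carried the Mx1-Cre transgene alone (group name Mx1-Cre) and mutant mice carried Mx1-Cre with the heterozygous Srsf2 allele P95H/+ (group name P95H), a change in a splicing factor that is recurrent in myelodysplastic syndromes. Mice of each genotype were given PBS, a salt buffer, or PHZ (phenylhydrazine, which destroys red cells and so forces their replacement), by subcutaneous injection on days 0 and 1 (PHZ at 30 mg/kg), and cells were taken on day 4. Each of the 4 groups (Mx1-Cre PBS, Mx1-Cre PHZ, P95H PBS and P95H PHZ) holds 5 libraries, and each library name carries a number of its own. Age and sex of the mice, and whether or when an inducer of the Cre was given, are not given in the sources used here. Both genotypes carry a Cre driven by the promoter of Mx1, an interferon-stimulated gene, so no group is free of it, and recombination is not limited to erythroid cells. Erythroid genes were high in every library: the 14 erythroid markers, among them Klf1, Gata1, Car2 and the transferrin receptor Tfrc, summed to between 7818 and 12434. The values are normalised signals with the form of TPM (transcript abundance corrected for gene length and library size), and the read depth behind a value is not known from them. In bulk RNA, fewer cells of a type and less RNA per cell cannot be told apart.

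A class I molecule is a heavy chain held together with beta-2 microglobulin, the product of B2m, and a short peptide. H2-K1 and H2-D1 encode the classical heavy chains, which present peptides to CD8 T cells, and the Q and T genes encode nonclassical ones, of which H2-T23 (Qa-1) is read by inhibitory receptors of natural killer cells. Peptides are cut by the proteasome, in which Psmb8, Psmb9 and Psmb10 can take the place of the constitutive subunits Psmb5, Psmb6 and Psmb7, and are pumped into the endoplasmic reticulum by the Tap1 and Tap2 transporter, next to which tapasin (Tapbp) holds the empty heavy chain. Interferons raise the transcription of nearly all of these genes in part through Irf1 and the coactivator Nlrc5.

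On the mouse build GRCm38, B2m lies alone on chromosome 2 (122147686-122153083, plus strand). The other 9 genes lie in the major histocompatibility region of chromosome 17, from Tapbp (33915899-33929292, plus strand) and H2-K1 (33996017-34000347, minus strand) through Tap1 (34187553-34197225, plus strand) and Psmb8 (34197721-34201454, plus strand) to H2-D1 (35262730-35267499, plus strand), H2-Q4 (35379617-35385290, plus strand), H2-Q6 (35424850-35430055, plus strand), H2-Q7 (35439155-35443773, plus strand) and H2-T23 (36029773-36032855, minus strand). All 10 are annotated as protein-coding. The longest open reading frames of H2-Q6 (981 bases) and H2-Q7 (1005 bases) were identical at 93.2% of aligned positions, against 88.7% for H2-K1 with H2-D1 and 79.3% for H2-K1 with H2-Q6. Of all stretches of 150 bases, the read length, in the transcripts of H2-Q6, 5.99% also occurred in H2-Q7, and of those of H2-Q7, 6.18% occurred in H2-Q6 and 2.13% in H2-Q5. Reads of these genes could be split between copies, so the single values of H2-Q6 and H2-Q7 are uncertain and their sum less so. For H2-D1 the shared part was 1.54% (with H2-Q1), for H2-T23 0.831% (with Gm7030), and for the other members 0%.

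The promoters of the members were read because the genes moved together. The following stretches, from RefSeq (GRCm38.p6), show the start-proximal part of 4 heavy-chain promoters and of B2m, with capitals marking matches to GGGNNTTCC (the core bound by NF-kB) and to GAANNGAAA or to its wider form GAAA, any 2 bases, GAAA (interferon response patterns), on either strand. The patterns do not overlap one another in the stretches shown.
H2-K1 (chr17:34000379-34000478, minus strand): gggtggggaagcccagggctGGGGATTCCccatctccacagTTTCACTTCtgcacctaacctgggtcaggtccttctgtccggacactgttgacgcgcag
H2-Q4 (chr17:35379424-35379523, plus strand): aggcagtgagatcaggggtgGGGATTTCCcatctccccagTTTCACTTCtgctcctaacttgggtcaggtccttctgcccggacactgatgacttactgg
H2-Q6 (chr17:35424657-35424756, plus strand): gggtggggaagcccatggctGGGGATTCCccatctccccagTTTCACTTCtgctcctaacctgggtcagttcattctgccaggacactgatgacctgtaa
H2-Q7 (chr17:35439002-35439101, plus strand): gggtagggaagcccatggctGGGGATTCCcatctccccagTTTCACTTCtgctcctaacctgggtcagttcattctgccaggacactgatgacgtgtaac
B2m (chr2:122147528-122147627, plus strand): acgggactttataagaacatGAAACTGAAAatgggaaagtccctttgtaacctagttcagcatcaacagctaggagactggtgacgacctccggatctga

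The 4 heavy-chain stretches carry the same pair in the same order, an NF-kB pattern followed by the interferon pattern on the opposite strand. The strand shown therefore reads TTTCACTTC at the interferon pattern. The pair stood at positions -111 and -90 from the RefSeq start in H2-K1, -171 and -150 in H2-D1, -173 and -153 in H2-Q4, -173 and -152 in H2-Q6 and -133 and -113 in H2-Q7. B2m instead held GAAACTGAAA at -139, and H2-T23 held the same wider pattern, on the opposite strand, at -124. GGGNNTTCC and GAANNGAAA each matched in 5 of the 10 members, against 5.82% and 7.52% of all 32851 RefSeq windows of 300 bases, and the wider form matched in 2 of 10 against 3.44%. The 5 are heavy chains of related sequence (H2-K1, H2-D1, H2-Q4, H2-Q6 and H2-Q7), so their matches are not 5 separate observations. The cyclic AMP pattern TGACGTCA matched in 0 of 10 (1.79% of all windows), and the windows of Tap1, Tapbp and Psmb8 held none of the 4 patterns. The 5 heavy-chain windows outside H2-T23 also share the run acagggttcaggcaaagtctt (21 bases), which no window of another gene contains. These are matches of letters in 1 window per gene, and the RefSeq start sites of H2-D1, H2-T23, Psmb8 and Tapbp lie 364, 154, 474 and 3579 bases from the start in the GENCODE annotation.

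After PHZ, all 10 genes were lower in CFU-E of both genotypes, from the heavy chains through the light chain to the transporter and the proteasome subunit. H2-Q6 and H2-Q7 fell most: together they dropped from 141 ± 74.8 to 18.5 ± 4.03 in Mx1-Cre and from 209 ± 113 to 19.0 ± 3.56 in P95H (mean ± SD, n = 5). The classical chains H2-K1 and H2-D1 and the loading factor Tapbp fell least. By limma, with Benjamini-Hochberg adjustment over 10890 genes and a threshold of 0.05, 10 of 10 were called lower in Mx1-Cre, where 14.9% of all genes tested were called lower and 31.9% in either direction, and 10 of 10 in P95H, where 17.7% were called lower and 30.2% in either direction. The median log2 fold change of the 10 was -1.04 and -1.39, beside -0.00 and -0.02 over all genes tested. Because the 10 were chosen with earlier results of these data known, their contrast with all genes is a description and not independent support. Lymphoid markers were lower in the same libraries, with no overlap between treatments, and with their mean as a covariate 6 of 10 were called in each genotype: the calls of H2-K1, H2-D1, Tapbp and Psmb8 were lost in both. Calls were lost over all 10890 genes as well: those called lower went from 1618 to 835 in Mx1-Cre and from 1923 to 319 in P95H.

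H2-K1, a classical heavy chain, read 508, 505, 379, 306 and 459.6 in the 5 Mx1-Cre PBS libraries (replicates 1 to 5, as in all lists below) and 283, 311, 313, 268 and 330.2 after PHZ. In P95H it read 538, 421, 509.6, 853 and 417 under PBS and 276, 276, 234, 344 and 249 after PHZ. The 2 treatments overlapped in Mx1-Cre, where PBS replicate 4 lay below PHZ replicates 2, 3 and 5, and did not overlap in P95H. The log2 fold change was -0.50 ± 0.17 (SE, adjusted p = 0.0323 by limma) in Mx1-Cre and -0.95 ± 0.17 (SE, adjusted p = 0.00036 by limma) in P95H. The Mx1-Cre call is the least firm of the set: it was lost in 11 of 25 alternative analyses, among them without Mx1-Cre PBS replicate 1, 2 or 5 (adjusted p = 0.0795, 0.0769 and 0.0624) and without Mx1-Cre PHZ replicate 1, 3 or 4 (0.0624, 0.0514 and 0.0746), with log2 fold changes between -0.63 and -0.43 over all 25.

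H2-D1, the other classical chain, closely resembled H2-K1. It read 597, 611, 475, 371 and 544 in Mx1-Cre PBS and 328, 374, 384, 316 and 374 in Mx1-Cre PHZ. In P95H the values were 628, 531, 641, 875 and 488 under PBS and 358, 365, 330.2, 403 and 339 after PHZ. Again only Mx1-Cre PBS replicate 4 reached into the PHZ range, and the P95H groups stood apart. The log2 fold change was -0.53 ± 0.14 (SE, adjusted p = 0.00613 by limma) and -0.79 ± 0.14 (SE, adjusted p = 0.000223 by limma), and PHZ values were lower by 31.6% and 43.2% of the PBS mean. With the lymphoid covariate H2-D1 was not called (adjusted p = 0.0632 and 0.0802 by limma).

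H2-Q7, a nonclassical heavy chain of the Qa-2 group, varied widely between libraries. It read 151, 152, 70.0, 30.1 and 99.9 in Mx1-Cre PBS and 11.7, 15.5, 14.4, 7.74 and 13.6 in Mx1-Cre PHZ. The P95H libraries read 115, 106, 166, 257 and 72.8 under PBS and 11.6, 14.3, 12.2, 17.2 and 14.3 after PHZ. Every PHZ library lay below every PBS library, while the PBS libraries of 1 genotype differed among themselves by several-fold, with Mx1-Cre PBS replicate 4 at 30.1 and P95H PBS replicate 4 at 257. The log2 fold change was -2.72 ± 0.39 (SE, adjusted p = 7.35e-05 by limma) in Mx1-Cre and -3.15 ± 0.39 (SE, adjusted p = 1.48e-05 by limma) in P95H.

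H2-Q6, of the same group, read 61.4, 62.5, 24.8, 12.5 and 38.1 and 5.06, 6.06, 6.46, 4.45 and 7.54 in Mx1-Cre, under PBS and after PHZ. It read 49.3, 41.4, 68.7, 136 and 33.9 and 3.93, 5.18, 3.32, 6.66 and 6.33 in P95H. The groups did not overlap in either genotype, and the libraries kept the order seen for H2-Q7 under PBS in Mx1-Cre. The log2 fold change was -2.37 ± 0.40 (SE, adjusted p = 0.00031 by limma) and -3.31 ± 0.40 (SE, adjusted p = 1.09e-05 by limma), and that of the sum of H2-Q6 and H2-Q7 was -2.67 ± 0.40 (SE, adjusted p = 0.000103 by limma) and -3.26 ± 0.40 (SE, adjusted p = 1.27e-05 by limma). Among all 10890 genes tested, ordered from the most negative fold change, H2-Q7 ranked 1 and H2-Q6 ranked 3 in Mx1-Cre, and H2-Q6 ranked 1 and H2-Q7 ranked 2 in P95H. These ranks hold on the log2(value + 1) scale, on which low genes differ less than by their means: by group means Rtp4, a low interferon-stimulated gene, was 8.40-fold lower in Mx1-Cre against 7.99-fold for H2-Q7, and Zbp1, another, was 13.1-fold lower in P95H against 12.9-fold for H2-Q6. In P95H, Zbp1 averaged 2.82 ± 3.44 (SD) under PBS and 0.216 after PHZ, so its fold is uncertain. In Mx1-Cre it was not called (adjusted p = 0.23 by limma). The ratio of H2-Q7 to H2-Q6 stayed between 1.74 and 3.69 in all 20 libraries.

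H2-Q4, a further nonclassical chain, fell less than H2-Q6 and H2-Q7. Its values were 83.0, 87.4, 58.6, 44.4 and 61.7 in Mx1-Cre PBS and 28.1, 28.1, 28.1, 23.3 and 30.0 in Mx1-Cre PHZ. In P95H they were 73.2, 62.8, 72.3, 145 and 56.3 under PBS and 25.8, 22.01, 22.9, 26.9 and 31.9 after PHZ. The PHZ libraries were close together and all below the PBS libraries, and the log2 fold change was -1.22 ± 0.21 (SE, adjusted p = 0.000289 by limma) and -1.55 ± 0.21 (SE, adjusted p = 2.41e-05 by limma).

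H2-T23 was the steadiest heavy chain under PBS in Mx1-Cre. It read 66.7, 62.5, 65.3, 71.4 and 60.6 there and 31.0, 32.1, 32.4, 24.6 and 32.7 after PHZ. In P95H it read 65.3, 58.7, 57.3, 98.7 and 52.9 under PBS and 32.8, 23.8, 19.5, 26.8 and 26.2 after PHZ. Mx1-Cre PBS replicate 4, which was lowest for 8 of the 10 genes, was highest for this one. The groups did not overlap, and the log2 fold change was -1.08 ± 0.14 (SE, adjusted p = 1.13e-05 by limma) and -1.32 ± 0.14 (SE, adjusted p = 9.39e-07 by limma).

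**Figure D1:**
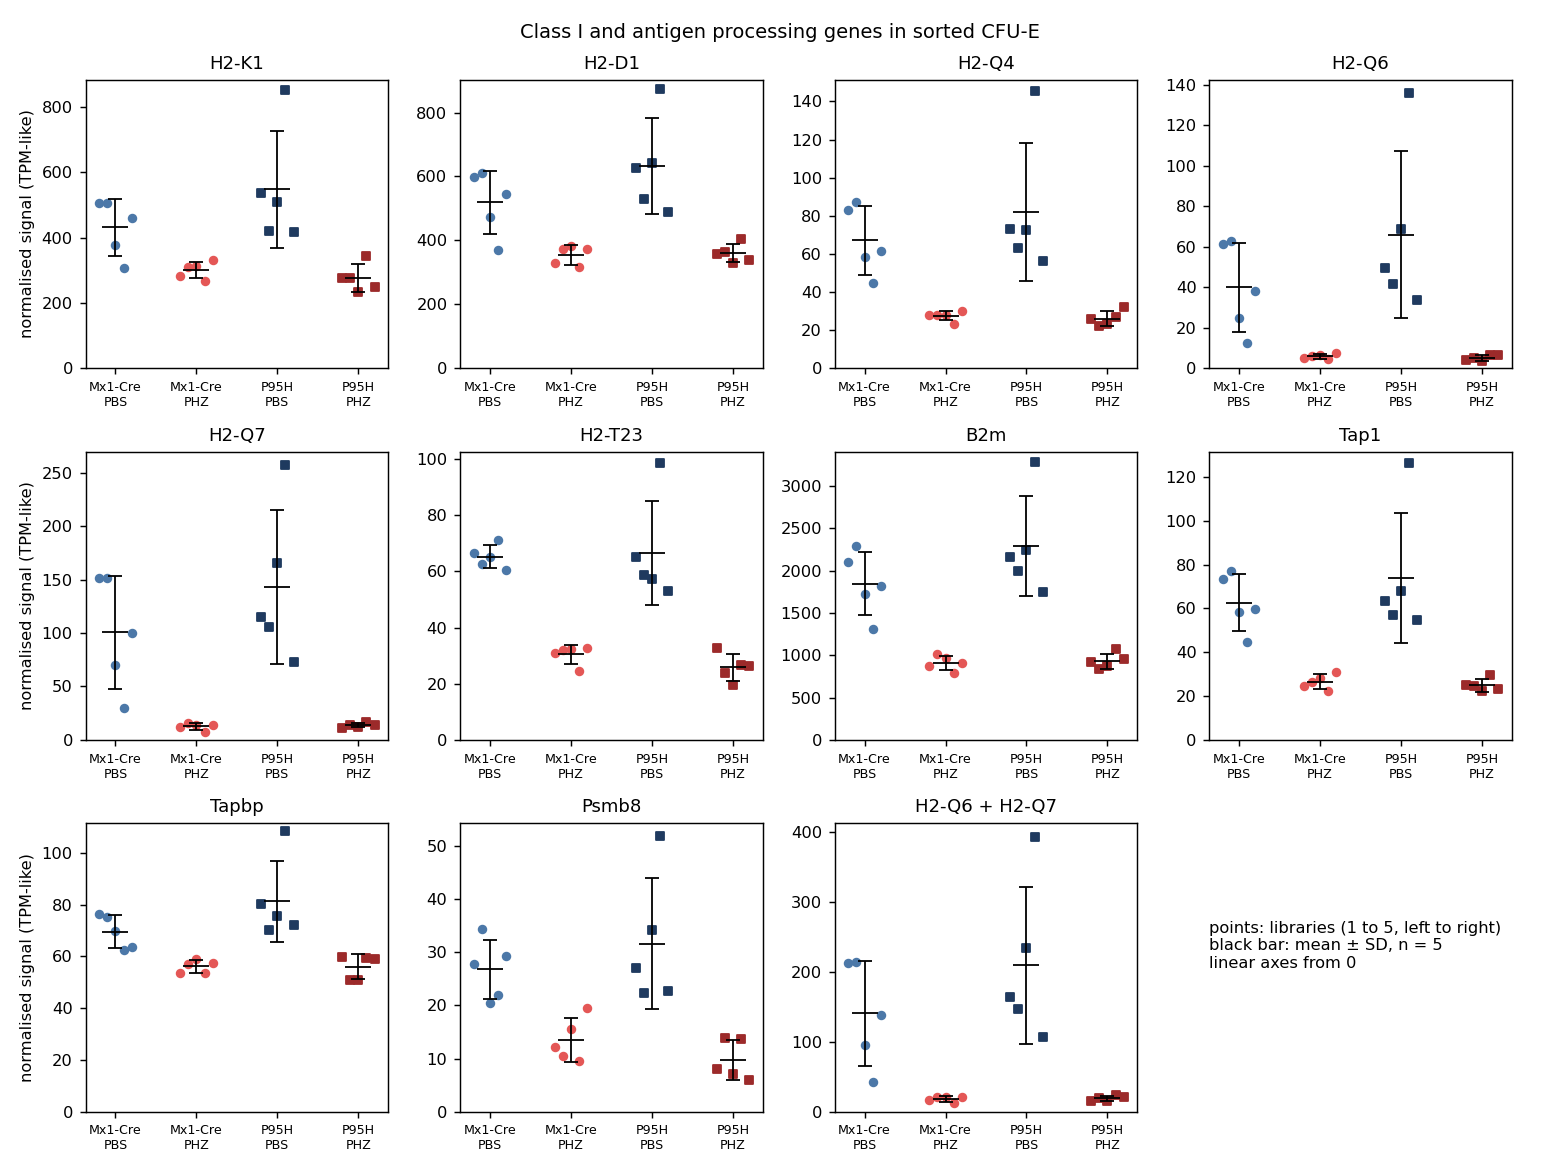
Normalised signal (vertical axes, TPM-like, linear from 0) of the 10 genes and of H2-Q6 and H2-Q7 summed, in Mx1-Cre and P95H CFU-E after PBS or PHZ. Points are libraries (circles Mx1-Cre, squares P95H) and black bars the mean ± SD of 5. PHZ libraries lie below PBS libraries for all panels except H2-K1 and H2-D1 in Mx1-Cre, where 1 PBS library reaches the PHZ range, and P95H PBS replicate 4 is the highest point of each panel.

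B2m, the light chain that every heavy chain needs, was the most abundant member in every group. It read 2099, 2296, 1719, 1311 and 1818 in Mx1-Cre PBS and 877, 1013, 964, 792 and 910.0 in Mx1-Cre PHZ. It read 2165, 2002, 2250.5, 3285 and 1754 in P95H PBS and 916, 837, 879, 1070.0 and 960.1 in P95H PHZ. No PHZ library reached the lowest PBS library of its genotype. The log2 fold change was -0.999 ± 0.14 (SE, adjusted p = 4.14e-05 by limma) in Mx1-Cre, where the mean was lower by 50.7%, and -1.27 ± 0.14 (SE, adjusted p = 2.60e-06 by limma) in P95H, where it was lower by 59.3%.

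Tap1, a subunit of the peptide transporter, moved by a like amount. It read 73.5, 77.0, 58.2, 44.8 and 59.5 and 24.5, 26.3, 28.4, 22.2 and 31.1 in Mx1-Cre, under PBS and after PHZ. It read 63.4, 57.1, 68.1, 126 and 54.5 and 24.8, 24.6, 22.2, 29.8 and 23.2 in P95H. The groups did not overlap, with log2 fold changes of -1.19 ± 0.18 (SE, adjusted p = 9.37e-05 by limma) and -1.46 ± 0.18 (SE, adjusted p = 9.28e-06 by limma).

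Tapbp (tapasin) changed least. It read 76.5, 75.2, 69.7, 62.6 and 63.6 and 53.4, 57.1, 59.0, 53.7 and 57.5 in Mx1-Cre, under PBS and after PHZ. It read 80.1, 70.1, 75.6, 108 and 72.1 and 59.9, 51.0, 50.9, 59.3 and 59.1 in P95H. The groups stood apart by narrow margins in Mx1-Cre, and the log2 fold change was -0.30 ± 0.09 (SE, adjusted p = 0.0162 by limma) and -0.51 ± 0.09 (SE, adjusted p = 0.000238 by limma). With the lymphoid covariate Tapbp was not called (adjusted p = 0.0671 and 0.0554 by limma).

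Psmb8, the interferon-inducible proteasome subunit (LMP7), was the least abundant member under PBS. It read 27.7, 34.3, 20.5, 21.99 and 29.2 and 12.1, 10.45, 15.6, 9.55 and 19.5 in Mx1-Cre, under PBS and after PHZ. It read 27.0, 22.4, 34.2, 51.9 and 22.7 and 8, 13.9, 7.10, 13.6 and 6.02 in P95H. The lowest PBS library lay just above the highest PHZ library in Mx1-Cre and well above it in P95H. The log2 fold change was -0.96 ± 0.26 (SE, adjusted p = 0.00851 by limma) and -1.60 ± 0.26 (SE, adjusted p = 0.000142 by limma). With the lymphoid covariate Psmb8 was not called (adjusted p = 0.097 and 0.0867 by limma).

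Counting groups that do not overlap, the 5 PHZ libraries stood apart from the 5 PBS libraries for 8 of the 10 genes in Mx1-Cre, where this held, in either direction, for 22.4% of all genes tested, and for 10 of 10 in P95H, where it held for 17.6%. All were lower after PHZ. The 2 exceptions were H2-K1 and H2-D1 in Mx1-Cre. Under PHZ the members ranked between 1 and 1278 in Mx1-Cre and between 1 and 542 in P95H from the most lowered of 10890 genes, with Tapbp last in both. The split of all calls depends on scaling: in P95H 1371 genes were called higher and 1923 lower as deposited, and 2670 and 1084 after rescaling each library to the same sum, which moved the median log2 fold change of all genes from -0.02 to 0.08. With that rescaling 9 members were called lower in Mx1-Cre (all but H2-K1) and 10 in P95H.

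**Figure D2:**
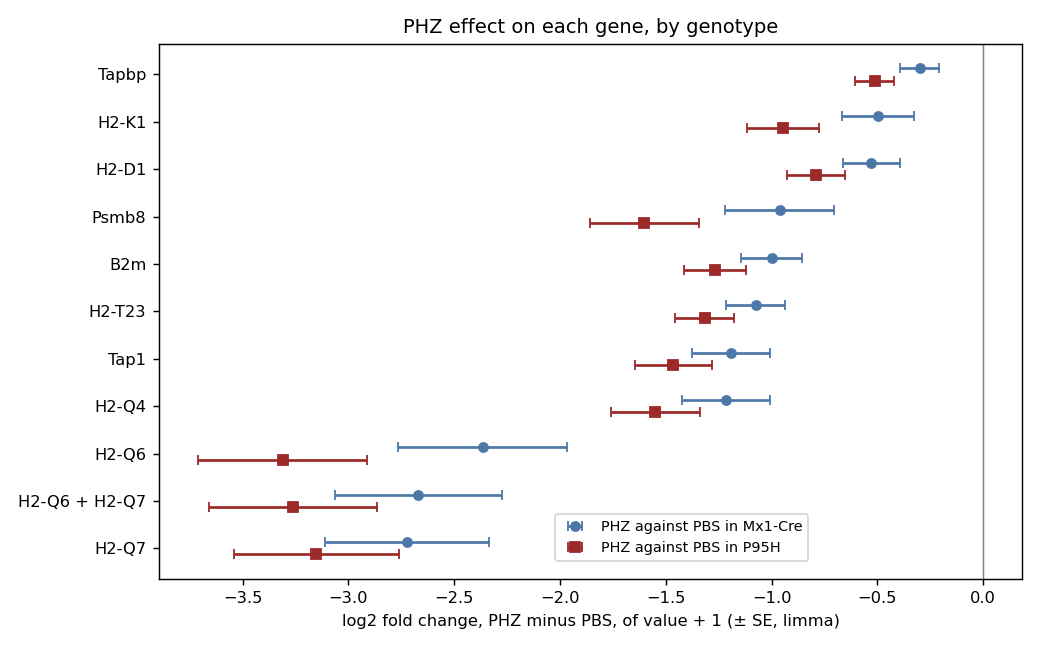
Log2 fold change of each gene for PHZ against PBS (horizontal axis, log2 of value + 1, bars ± SE by limma) in Mx1-Cre (circles) and P95H (squares). All points lie below 0, from -0.30 (Tapbp, Mx1-Cre) to -3.31 (H2-Q6, P95H), and the order of genes is similar in both genotypes.

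**Figure D3:**
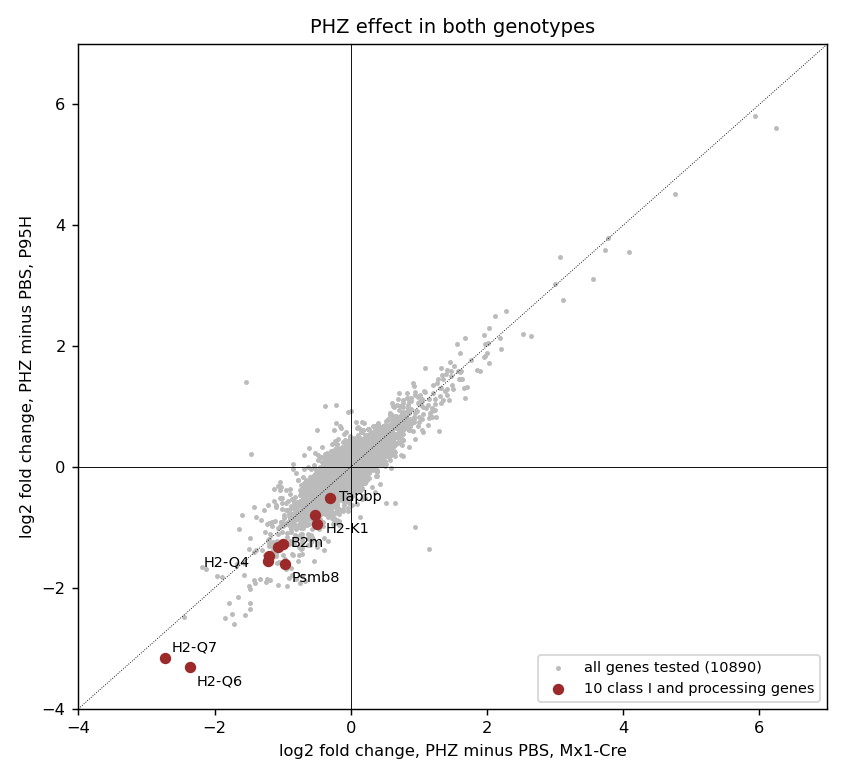
Log2 fold change for PHZ against PBS in Mx1-Cre (horizontal axis) against that in P95H (vertical axis) for all 10890 genes tested (grey), with the 10 members in red and equality as a dotted line. H2-Q6 and H2-Q7 lie at the far lower left, and Tapbp lies inside the cloud of other genes.

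The second question was whether the Srsf2 mutation changed these genes. Under PBS the 10 genes ran somewhat higher on average in P95H than in Mx1-Cre, for 9 of 10 by their log2 fold change, but none passed the test and the groups overlapped for all 10. Limma called 0 of 10, where 1.48% of all genes tested were called, and 1 member (Tapbp) had an unadjusted p under 0.05. The differences ranged from -0.01 (H2-T23, 95% interval -0.30 to 0.28) to 0.74 (H2-Q6, -0.10 to 1.59), with a median of 0.26. For H2-K1 the difference was 0.32 (-0.04 to 0.67), for H2-D1 0.28 (-0.01 to 0.56), for B2m 0.30 (-0.00047 to 0.60) and for Tapbp 0.21 (0.02 to 0.40, adjusted p = 0.3 by limma). Part of the higher P95H mean came from replicate 4: without it the difference was 0.14 for H2-K1, 0.16 for B2m, 0.10 for Tapbp and 0.44 for H2-Q6. Without replicate 4 of both PBS groups (a setting added once the values were known) the same differences were 0.03, 0.05, 0.07 and 0.09. Over all alternative analyses the lowest difference was above 0 for H2-K1, H2-D1, H2-Q6, B2m and Tapbp. It was below 0 for H2-Q4 (-0.12), H2-Q7 (-0.03), H2-T23 (-0.16), Tap1 (-0.13) and Psmb8 (-0.07), so the sign of the difference was not stable for these genes. H2-T23 was already below 0 in the main analysis. Under every alternative 0 members were called.

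After PHZ the 2 genotypes lay close together. Limma called 0 of 10 members (5.47% of all genes tested), and none had an unadjusted p under 0.05. B2m averaged 911 ± 84.3 in Mx1-Cre and 932 ± 89.4 in P95H, a log2 difference of 0.03 (95% interval -0.27 to 0.34). The differences ran from -0.46 for Psmb8 (-0.995 to 0.08) to 0.16 for H2-Q7 (-0.67 to 0.98). For H2-Q6 and H2-Q7 summed the difference was 0.05 (-0.79 to 0.88). These intervals leave room for differences of either sign, and are narrowest for Tapbp (-0.20 to 0.19).

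In the main analysis the fall after PHZ was numerically larger in P95H than in Mx1-Cre for all 10 genes. The difference between the 2 effects passed the test for none. Limma called 0 of 10 members and 0 of all 10890 genes, of which 577 had an unadjusted p under 0.05, none of them a member. The estimates ran from -0.94 (H2-Q6, 95% interval -2.14 to 0.25) to -0.21 (Tapbp, -0.48 to 0.06), with adjusted p between 0.798 and 0.857. For B2m the estimate was -0.27 (-0.70 to 0.16) and for H2-K1 -0.45 (-0.96 to 0.05). Over the alternative analyses the estimate changed sign in places for H2-Q4 (up to 0.03), H2-Q7 (up to 0.19) and Tap1 (up to 0.05). It stayed below 0 for the other members. The 10 genes vary together between libraries, so their common sign in the main analysis is not 10 separate observations.

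If the signal is corrected for gene length, as its TPM form implies, levels can be set side by side between genes. The places of H2-Q6 and H2-Q7 rest on their uncertain single values. In all 4 groups the order began with B2m, then H2-D1, then H2-K1, and the ranges of H2-D1 and H2-K1 overlapped while those of B2m and H2-D1 did not. Below them, under PBS, came H2-Q7, then Tapbp, H2-Q4, H2-T23 and Tap1 in an order that differed between the genotypes, then H2-Q6 and last Psmb8, with ranges that overlapped from each to the next. After PHZ H2-Q7 moved from place 4 to place 9 in Mx1-Cre and to place 8 in P95H, and H2-Q6 was last in both. Tapbp then stood alone in place 4, above the highest values of H2-T23, H2-Q4 and Tap1. The 6 heavy chains summed to 1224 ± 274, 733 ± 63.6, 1538 ± 491 and 706 ± 75.3 in the 4 groups (Mx1-Cre PBS, Mx1-Cre PHZ, P95H PBS, P95H PHZ; mean ± SD, n = 5).

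The makeup of the heavy-chain RNA also differed. H2-Q6 and H2-Q7 held 5.10% to 14.5% of the summed signal of the 6 heavy chains in Mx1-Cre PBS libraries and 9.51% to 16.6% in P95H PBS libraries. After PHZ they held 1.89% to 2.81% and 2.19% to 3.09%, below every PBS library. The ratio of the summed heavy chains to B2m was 0.660 ± 0.0348 under PBS and 0.805 ± 0.0402 after PHZ in Mx1-Cre, with no overlap (0.623 to 0.699 against 0.757 to 0.866). In P95H it was 0.664 ± 0.0419 and 0.758 ± 0.0597, with overlap. These shares and ratios are given as a description, with no test.

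The immunoproteasome exchange was read as the ratio of each inducible subunit to its constitutive counterpart within a library. For Psmb8 to Psmb5 the ratio was 0.132 ± 0.0303 under PBS and 0.0622 ± 0.0157 after PHZ in Mx1-Cre. In P95H it was 0.147 ± 0.0592 and 0.0478 ± 0.0177. Psmb5 itself averaged 203 under PBS and 214 after PHZ in Mx1-Cre and 217 and 202 in P95H, and limma called 0 of the 3 constitutive subunits in either genotype, where 31.9% and 30.2% of all genes were called; none of the 3 had an unadjusted p under 0.05. On the log2 scale the Psmb8 to Psmb5 ratio differed by -1.091 in Mx1-Cre and by -1.61 in P95H after PHZ, with an exact two-sided permutation p of 0.00794 for each, the smallest that 5 libraries against 5 allow, and 0.0159 after adjustment over 4 comparisons. Between genotypes it differed by 0.10 under PBS (adjusted exact p = 0.754) and by -0.42 under PHZ (0.212).

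Psmb9, the partner subunit LMP2, behaved like Psmb8. It went from 36.5 under PBS to 12.2 after PHZ in Mx1-Cre (a log2 fold change of -1.48 ± 0.22, adjusted p = 7.82e-05 by limma) and 48.0 and 10.34 in P95H (-2.02 ± 0.22, adjusted p = 2.68e-06). Its ratio to Psmb6 went from 0.146 ± 0.0399 to 0.0480 ± 0.00593 and from 0.186 ± 0.0937 to 0.0422 ± 0.00503. Psmb10 (MECL-1), the third inducible subunit, averaged 39.7 and 36.8 in Mx1-Cre, where it was not called (log2 fold change -0.11 ± 0.14, adjusted p = 0.613 by limma), and 49.5 and 35.2 in P95H, where it was called lower (-0.47 ± 0.14, adjusted p = 0.0173). The ratio of Psmb10 to Psmb7 overlapped between PBS and PHZ in both genotypes.

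**Figure D4:**
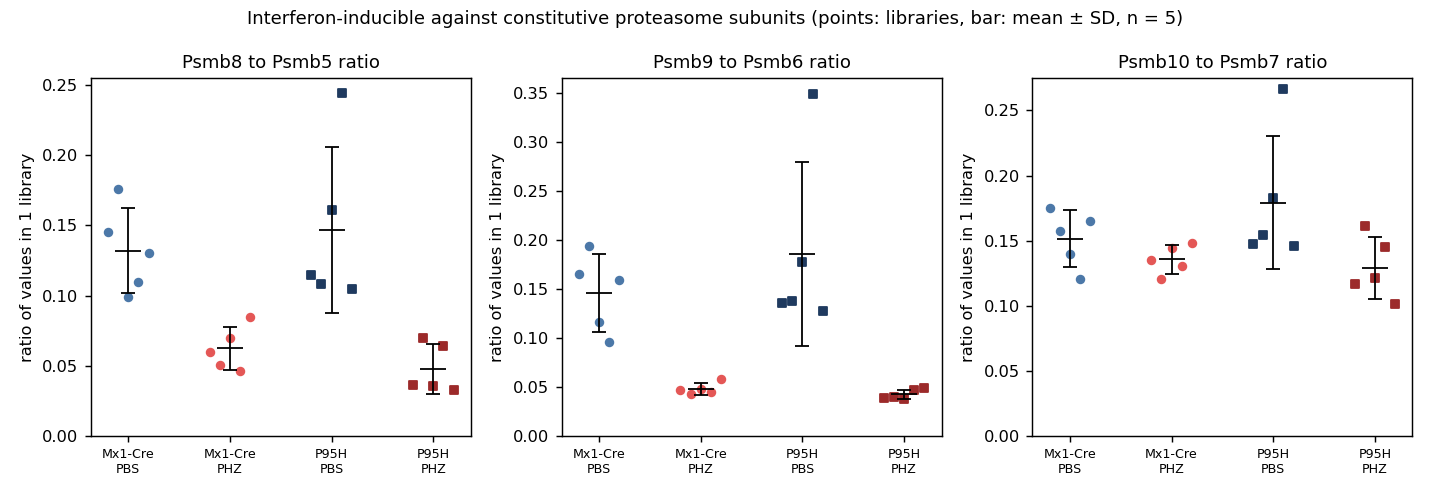
Ratio of each interferon-inducible proteasome subunit to its constitutive counterpart within a library (vertical axes, linear from 0): Psmb8 to Psmb5, Psmb9 to Psmb6 and Psmb10 to Psmb7. Points are libraries and bars the mean ± SD of 5. The first and second ratios separate PBS from PHZ in both genotypes, and the third overlaps.

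Other class I heavy chains and class I-like genes moved the same way as the members. Of 28 that were found, 9 passed the filter on low values, and after PHZ limma called 0 higher and 6 lower in Mx1-Cre and 1 higher and 6 lower in P95H. Shares called lower over all genes tested were 14.9% and 17.7%. The 6 were H2-T22, H2-Q5, H2-T10, H2-Q10, H2-M3 and H2-T24 in both genotypes. H2-Q10 averaged 0.197 after PHZ in Mx1-Cre and 0.313 in P95H, below the filter value. It passed the filter through PBS libraries, so its call is no independent support. H2-T22, a T-region class I gene, went from 26.3 under PBS to 13.7 after PHZ in Mx1-Cre (a log2 fold change of -0.89 ± 0.12, adjusted p = 1.14e-05) and 30.5 and 12.3 in P95H (-1.22 ± 0.12, adjusted p = 1.90e-07). H2-Q5, from the Q region and sharing sequence with H2-Q7, averaged 11.2 and 2.08 in Mx1-Cre and 19.8 and 2.44 in P95H. Mr1, which presents vitamin B metabolites, was the gene called higher, in P95H (3.40 under PBS and 4.49 after PHZ, log2 fold change 0.33 ± 0.10). The median log2 fold change of the 9 was -0.65 in Mx1-Cre and -0.73 in P95H.

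The wider peptide-processing machinery split. Of 22 other processing genes, all tested, 9 were called higher and 5 lower after PHZ in Mx1-Cre, and 6 higher and 9 lower in P95H, with medians of 0.07 and -0.01. All genes tested gave 31.9% and 30.2% called in either direction. The genes lower in both were Psmb9, Tap2, the proteasome activator subunits Psme1 and Psme2, and the tapasin-related Tapbpl. Tap2, the partner of Tap1 in the transporter, went from 48.7 under PBS to 32.9 after PHZ in Mx1-Cre (a log2 fold change of -0.55 ± 0.11, adjusted p = 0.000829) and 52.5 and 31.2 in P95H (-0.71 ± 0.11, adjusted p = 6.14e-05). Psme1 averaged 199.9 and 143 in Mx1-Cre and 219 and 123 in P95H. Among the genes called higher, Calr (calreticulin, a glycoprotein chaperone) averaged 612 and 847 in Mx1-Cre (log2 fold change 0.48 ± 0.09) and 643 and 795 in P95H (0.30 ± 0.09), and Sec61a1, a channel subunit of the endoplasmic reticulum, 128 and 170.0 in Mx1-Cre (0.41 ± 0.08). B4galt1, a galactosyltransferase of the Golgi, averaged 38.5 and 56.3 in Mx1-Cre (0.53 ± 0.07) and 39.4 and 60.6 in P95H (0.60 ± 0.07). Other genes of protein folding and of the channel did not share this: Ganab and Prkcsh were called in neither genotype, Canx and Pdia3 were called higher in Mx1-Cre but not in P95H (adjusted p = 0.268 and 0.863 by limma), and Sec61b was called lower in P95H (log2 fold change -0.36 ± 0.08, adjusted p = 0.0015).

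Regulators of class I transcription were often lower as well. Of 19 tested, 2 were called higher and 10 lower after PHZ in Mx1-Cre, and 2 higher and 9 lower in P95H, beside 14.9% and 17.7% of all genes called lower. Nlrc5, the class I coactivator, read 10.48, 12.3, 7.66, 4.66 and 7.97 in Mx1-Cre PBS and 2.25, 3.00, 2.23, 1.32 and 2.02 after PHZ, with P95H at 7.48, 8.66, 11.1, 15.1 and 6.12 under PBS and 2.11, 1.63, 1.91, 2.04 and 2.31 after PHZ. No PHZ library of Nlrc5 reached a PBS library of its genotype, and the log2 fold change was -1.57 ± 0.21 in Mx1-Cre (adjusted p = 1.65e-05 by limma) and -1.78 ± 0.21 in P95H (adjusted p = 3.39e-06). Irf1, an interferon-induced activator of class I genes, averaged 6.82 ± 3.04 and 2.09 ± 0.654 (SD, n = 5) in Mx1-Cre (log2 fold change -1.26 ± 0.26, adjusted p = 0.00137) and 8.27 ± 3.23 and 2.27 ± 0.697 in P95H (-1.46 ± 0.26, adjusted p = 0.000363). Rfx5, a subunit of the complex that recruits Nlrc5, and Irf2 were also lower in both genotypes, with log2 fold changes of -0.64 and -0.55 for Rfx5 and -0.42 and -0.40 for Irf2. The 2 called higher were Nfkb1 (44.1 to 62.5 in Mx1-Cre, 43.9 to 59.7 in P95H), an NF-kB subunit, and Creb1 (30.9 to 36.2 and 29.9 to 35.1).

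Interferon-stimulated genes outside the class I pathway showed the same direction. Of 43 tested of 55 found, 1 was called higher and 27 lower after PHZ in Mx1-Cre, and 0 higher and 35 lower in P95H, with medians of -0.54 and -0.79. The shares of all genes called lower were 14.9% and 17.7%, and in either direction 31.9% and 30.2%. Some interferon-stimulated genes passed the filter through PBS libraries, such as Ddx60 (0.280 after PHZ in Mx1-Cre and 0.464 in P95H). Calls of such genes are no independent support. Rtp4 averaged 3.89 and 0.463 in Mx1-Cre (log2 fold change -1.71 ± 0.26) and 12.1 and 1.05 in P95H (-2.60 ± 0.26), Ifi27 53.4 and 21.9 in Mx1-Cre (-1.26 ± 0.16), and Irf7, a master regulator of type I interferon genes, 13.9 and 5.28 in Mx1-Cre (-1.25 ± 0.20). Mx1, whose promoter drives the Cre, was below the filter, at 0.374 to 0.564 in Mx1-Cre PBS, 0 to 0.472 in Mx1-Cre PHZ, 0.670 to 0.826 in P95H PBS and 0 to 0.846 in P95H PHZ, where 0 means listed at 0. Of 9 tested genes for interferon receptors, kinases and their regulators Usp18 and Ptpn2, 2 were called higher and 3 lower in Mx1-Cre. In P95H 1 of the 9 was called higher and 3 lower. Jak2, Ifngr2 and Usp18 were lower in both, and Jak1 higher in both. Usp18 is also counted among the 43 interferon-stimulated genes. Of the 43 interferon-stimulated genes, 3 passed the genotype test under PBS and 40 did not, beside 1.48% of all genes called. Rtp4 (log2 fold change 1.33 ± 0.26, adjusted p = 0.0108 by limma), Oas1a (1.14 ± 0.26, adjusted p = 0.0294) and Ifitm3 (0.98 ± 0.19, adjusted p = 0.0109) were higher in P95H. Whether the members differ from these 3 was not tested. Under PHZ, Herc6 was higher (0.46 ± 0.08, adjusted p = 0.00327) and Rfxap, a partner of Rfx5, lower (-0.25 ± 0.06, adjusted p = 0.0167).

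Class II and neighbouring genes did not follow as a block. Of 11 class II genes 3 passed the filter (H2-DMa, H2-DMb1 and H2-Ab1), with 0 called in Mx1-Cre and 1 called lower, H2-DMb1, in P95H. Between Tapbp and H2-T23 lie 68 other protein-coding genes that were tested and are in none of the class I lists, a set drawn up after the member values were known. Of these, 12 were called higher and 9 lower after PHZ in Mx1-Cre and 7 higher and 12 lower in P95H, with medians of 0.03 and -0.06. These counts are near the shares of all genes called in either direction, 31.9% and 30.2%.

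Within the groups the 10 genes varied together from library to library. Over the 45 pairs, the correlation of deviations from the group mean over 20 libraries had a median of 0.85, from 0.33 (H2-Q7 with H2-T23) to 0.97 (H2-K1 with H2-D1). H2-D1 and B2m followed the others most closely (median correlation with the other 9 of 0.94 and 0.93) and H2-T23 and Psmb8 least (0.54 and 0.63). P95H PBS replicate 4 was highest of its group for all 10 genes, Mx1-Cre PBS replicate 2 for 7, and Mx1-Cre PHZ replicate 5 and P95H PHZ replicate 4 for 6 each. Mx1-Cre PHZ replicate 4 was lowest of its group for 9, Mx1-Cre PBS replicate 4 and P95H PBS replicate 5 for 8 each, and P95H PHZ replicate 3 for 6. Without P95H PBS replicate 4, 10 of 10 members were still called lower after PHZ in P95H, from -0.41 (Tapbp) to -3.01 (H2-Q6).

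Among 8011 named protein-coding genes with a mean of at least 5, leaving out the members and the lists of other class I heavy chains and processing genes but not the regulators, those whose deviations were most like the mean of the members over the 20 libraries were Lgals3bp (r = 0.87), Nlrc5 (0.86), Igtp (0.86), Sema4d (0.84), Tgtp1 (0.84), Tgtp2 (0.83), Ifi47 (0.83) and Pnpla2 (0.83). Igtp, Tgtp1, Tgtp2 and Ifi47 are interferon-inducible GTPases. Of these 8, Nlrc5, Igtp, Tgtp1 and Tgtp2 were called lower after PHZ in both genotypes, Lgals3bp and Ifi47 in P95H alone, and Sema4d and Pnpla2 in neither, the genotypes' effects themselves not differing by test. For B2m alone the closest were Nlrc5 (0.93), Lgals3bp (0.91) and Tgtp2 (0.90), for Tap1 Lgals3bp (0.89), Ly6e (0.86) and Sema4d (0.86), and for H2-K1 Lgals3bp (0.84), Bst2 (0.83) and Ly6e (0.82). The same 20 libraries enter each of these correlations, with their differences in cell makeup and depth, so they are a description without a test.

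Markers of several other blood cell types were called lower after PHZ, though not all, and the number called differed between the genotypes. The difference between the 2 PHZ effects was called for 0 of 17 granulocyte and monocyte markers tested, so the genotypes were not shown to differ. For comparison, 14.9% of all genes tested were called lower in Mx1-Cre and 17.7% in P95H. The 19 granulocyte and monocyte markers summed to 463 to 971 in Mx1-Cre PBS, 154 to 1095 in Mx1-Cre PHZ, 575 to 2516 in P95H PBS and 163 to 607 in P95H PHZ, none of them at 0 throughout a group, and of 17 tested 1 was called lower after PHZ in Mx1-Cre, where 16 were not called, and 17 in P95H. P95H PBS replicate 5 had the highest marker level of all libraries and the lowest B2m of its group (1754), while replicate 4, with the next highest marker level, had the highest B2m (3285). Mx1-Cre PHZ replicate 5 had the highest summed marker level of its group, 1095, and B2m at 910.0, in the middle of its group. With the mean of these markers as a covariate, 8 members were called lower in Mx1-Cre (H2-K1 at adjusted p = 0.0946 and Tapbp at 0.0784 were lost) and 10 in P95H, and the log2 fold change of B2m was -1.01 and -1.29. Among all genes tested, those called lower went from 1618 to 1078 in Mx1-Cre and from 1923 to 552 in P95H.

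The 15 lymphoid markers were low but separated the treatments more clearly. They summed to 9.28 to 17.9 in Mx1-Cre PBS, 1.15 to 5.75 in Mx1-Cre PHZ, 9.41 to 29.5 in P95H PBS and 0.717 to 4.01 in P95H PHZ, and of 4 tested 2 were called lower in Mx1-Cre and 3 in P95H. Ighm, the immunoglobulin heavy chain of B cells, averaged 2.49 and 0.319 in Mx1-Cre and 4.65 and 0.460 in P95H. The filter can be met by PBS libraries alone, and a gene passing that way is more likely to be called lower after PHZ. Ighm averaged below the filter value in both PHZ groups, so its fall is no independent support. Cd3e, Cd3g, Klrd1, Ms4a1 and Cd4 were listed at 0 in every library of both PHZ groups, and Klrd1 also in those of both PBS groups. With the mean of the lymphoid markers as a covariate (also added once the values were known), 6 members were called lower in each genotype. Fewer genes were then called lower among all tested: 835 in Mx1-Cre and 319 in P95H, against 1618 and 1923 without the covariate. H2-K1 (adjusted p = 0.103 and 0.0637 by limma), H2-D1, Tapbp and Psmb8 were lost, while their log2 fold changes were larger in size than without the covariate (for H2-K1 -0.63 and -1.16) and the standard errors had grown. What part other cells have in the fall of the members was not tested. Megakaryocyte markers were also lower (3 of 3 tested in Mx1-Cre, 2 of 3 in P95H), as were stem and early progenitor markers (3 of 3 in both), while the tested basophil and mast cell marker Il4 was called higher in both (log2 fold change 0.60 and 1.06, adjusted p = 0.0221 and 0.000289 by limma). The tested macrophage marker Cd68 was not called, and 0 of 7 endothelial and stromal markers passed the filter.

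**Figure D5:**
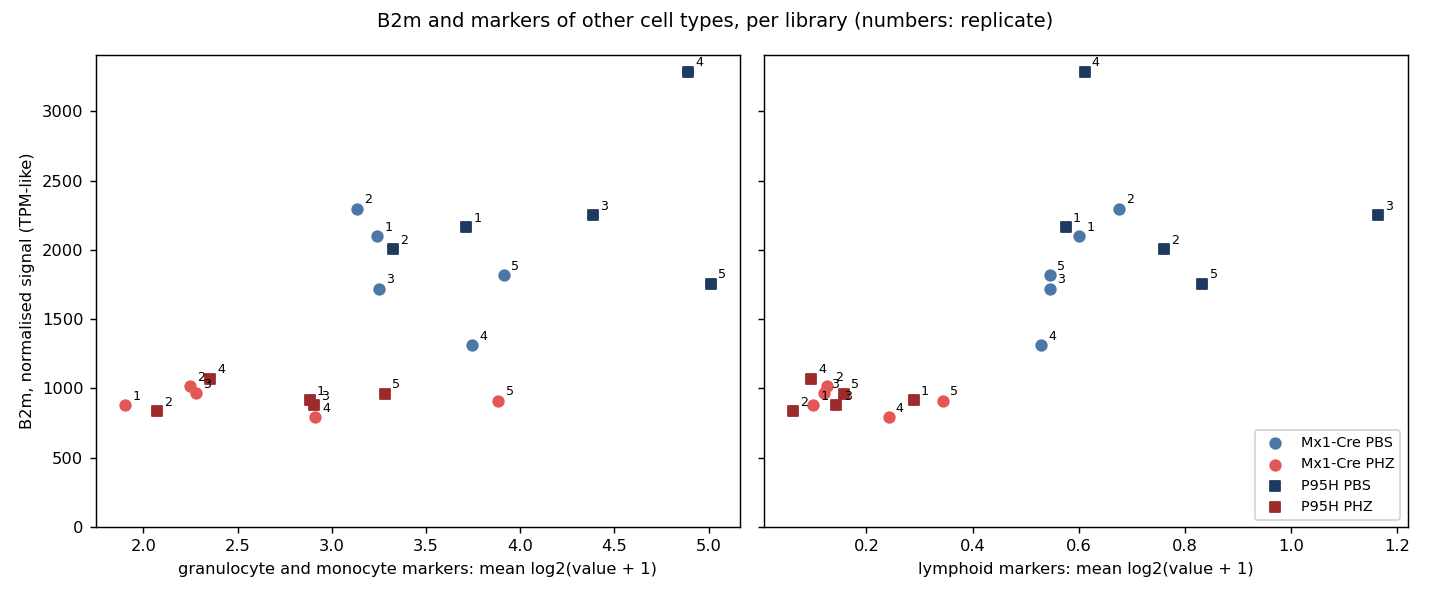
B2m (vertical axis, TPM-like signal) against the mean log2(value + 1) of granulocyte and monocyte markers (left) and of lymphoid markers (right), 1 point per library, numbered by replicate. PBS and PHZ libraries separate on the B2m axis and on the lymphoid axis and overlap on the granulocyte axis, and P95H PBS replicate 5 combines a high granulocyte level with a B2m of 1754.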

How the data were processed

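Bulk RNA of 20 sorted CFU-E libraries was measured, 5 in each of 4 groups. The authors' deposited table holds 1 normalised signal per entry and library; the submitters' processing notes list RSEM 1.2.4, TopHat2 2.0.8b, TopHat and Bowtie beside the mouse builds GRCm38 and mm10 and the human builds GRCh37 and hg19, with no role given. The deposited signal sums to between 924763 and 1085047 per library, and low values are whole multiples of 0.01 times 1 factor per library (0.94 to 1.096). Without counts, the reads behind a value and their counting error are unknown.

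Values were transformed as log2(value + 1), so fold changes of low genes are understated. The 10890 of 37748 entries (35986 with a symbol) with at least 1 in at least 5 libraries were fitted with limma 3.58.1 (R 4.3.3, statmod 1.5.0; variance trend, robust), 1 mean per group, with 5 two-sided contrasts adjusted by Benjamini-Hochberg and called under 0.05. The rule named all 10 members, up to 6 called genes per list and contrast by smallest p, and fixed regulators and subunits (Nlrc5, Irf1, Tap2, Psmb9, Psmb10, Psmb5 and Mx1; a further one is not reported here); other names were chosen after their values were seen. Members and lists were chosen with earlier results of these data known. The fit was tested on simulated data. Replicate numbers did not pair the samples (correlation of same-numbered deviations -0.306 to 0.270). Nothing states whether libraries of a group came from separate animals, so p-values measure the spread between these libraries. Positions are GRCm38 (GENCODE), promoters RefSeq (GRCm38.p6; all 10 members matched). Alternatives covered scaling, filter, pseudocount, marker covariates and left-out libraries. Tables and plots used Python 3.11.15, numpy 2.4.6, pandas 2.3.3 and matplotlib 3.10.9.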

Additional observations from a re-analysis of the deposited data

Results flagged for a closer look

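Of 44 sets of 5 library values (10 genes and the summed H2-Q6 and H2-Q7, in 4 groups), 7 held a library set apart from the other 4 by more than 0.71 of the whole range; chance sets apart about 1 set in 20. In 5 of them it was P95H PBS replicate 4, which lay above the rest of its group. H2-K1 was at 853.3 there against 417 to 538 in the others, H2-Q4 at 145.22 against 56.3 to 73.2, and H2-T23 at 98.737 against 52.9 to 65.3. Tap1 was at 126.31 against 54.5 to 68.1, and Tapbp at 108.46 against 70.1 to 80.1. In the opposite direction, Mx1-Cre PHZ replicate 4 lay below the rest of its group for H2-Q4, at 23.287 against 28.1 to 30.0, and for H2-T23, at 24.617 against 31.0 to 32.7. The 10 genes vary together between libraries, so these are not separate events.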

How the results depend on the processing

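The lower level after PHZ kept its direction for all 10 genes in both genotypes under every alternative run. The number of members called lower was 6 in Mx1-Cre and 6 in P95H with the lymphoid marker covariate, chosen after the data were seen, and 9 to 10 and 10 when single libraries were left out. That covariate also cut the calls of lower genes among all tested, to 835 in Mx1-Cre and 319 in P95H. For the Psmb8 to Psmb5 ratio the values were -1.091 and -1.611 with the numbers as a replicate block (adjusted exact p = 0.125 for each, from the smallest p that 5 pairs allow, 0.0625), and -1.473 without P95H PBS 4 and 5 together (adjusted exact p = 0.0714, from 0.0357, the smallest p that 3 libraries against 5 allow, so that setting could not pass). The replicate numbers are only shared numbers, since same-numbered libraries did not deviate together; under the block H2-K1 in Mx1-Cre was the member call lost (adjusted p = 0.0503 by limma). A pseudocount of 5 gave H2-Q6 -2.66 in P95H in place of -3.31, as low values shrink more. Fitting the compared groups alone gave no value for the difference between genotypes. Depth per value is unknown, so H2-Q6, Psmb8 and Mx1 at low levels carry an unstated counting error.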
